A study of Mus musculus with 8 samples.

Results

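White adipocyte and lipid storage genes were followed, array by array, in the lymph nodes (LN) of mice lacking the histamine H3 receptor (H3RKO) and of WT mice. The set holds 40 genes, most of them with known roles in fat cells, and was drawn up with earlier results of these arrays known, so that counts of its genes that passed a test are a description and not independent evidence. A gene was measured by the probe sets annotated to it alone, and the one with the highest mean signal over the 8 arrays stood for the gene. Of the 40 genes, 36 were measured, among 12393 genes in all. Plin1, Agpat2, Adrb3 and Acsl1 were named by no single-gene probe set in the annotation used and were not analysed here.

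The study asked how the H3 receptor shapes gene expression in LN before and shortly after immunization. Untreated LN came from H3RKO mice (2 arrays) and WT mice (2 arrays). LN taken 24 h after injection of complete Freund's adjuvant (CFA) came from H3RKO mice (1 array) and WT mice (1 array), and so did LN taken 24 h after CFA with pertussis toxin (CFA+PTX, 1 array each). The H3RKO line, B6.129P2-Hrh3tm1Twl, is a germline knockout carried by every cell of the animal, and the WT mice were C57Bl/6. Female and male mice of 8 weeks were used, and each array held RNA pooled from at least 3 of them. For the CFA+PTX arrays, the titles give PTX only and the descriptions give both agents. Nothing beyond the word replicate says that the pools of a group were prepared separately, so p-values measure the spread between arrays. For genotype differences within a treatment and for interactions, this spread is that between the untreated pairs. For comparisons averaged over treatments or genotypes, it also holds departures of the single injected arrays from a sum of genotype and treatment effects.

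White adipocytes store triglyceride in a single droplet that is coated by perilipins and the Cide proteins, and they secrete hormones such as adiponectin, leptin and resistin. Triglyceride is built from fatty acids, taken up from blood lipoproteins or made anew, on a glycerol backbone, and is released by a cascade of lipases. LN lie within fat pads, so that LN preparations can carry adipocytes, and a signal in total RNA does not separate fewer adipocytes from less RNA per adipocyte.

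The values were log2 signals from 2.42 to 14.40, and the array medians lay between 7.94 and 8.00. The difference between 3′ and 5′ control probe sets was 0.439 on the H3RKO CFA array and 0.164 to 0.346 on the others. Lymphocyte and LN stroma genes (9 of 12 measured) had a mean log2 signal of 11.72 to 11.83 in arrays labelled H3RKO and 11.65 to 11.79 in WT arrays, with no gene of the list below the lower quartile of mean signals, 5.85. Hrh3, the targeted gene, gave 7.20 to 7.29 in the arrays labelled H3RKO and 6.56 to 6.66 in WT arrays. Its probe set was thus higher where the gene was disrupted. Where this probe set lies relative to the disrupted part is not given in the sources used here, so it does not check the labels, and every direction below goes by the labels.

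Fat genes were mostly highest in WT untreated replicate 1. It was the highest array for 26 of the 36 genes, and 35 of 36 lay above their own mean there. WT untreated replicate 2 was the highest array for 1 gene, and 29 of 36 lay above their own mean there. H3RKO untreated replicate 1 was the highest for 5 genes. The lowest array was H3RKO CFA+PTX for 13 genes, WT CFA for 10 and WT CFA+PTX for 7. Genes of fat thus differed between arrays of the same genotype, and the lowest array was of either genotype, depending on the gene.

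**Figure D1:**
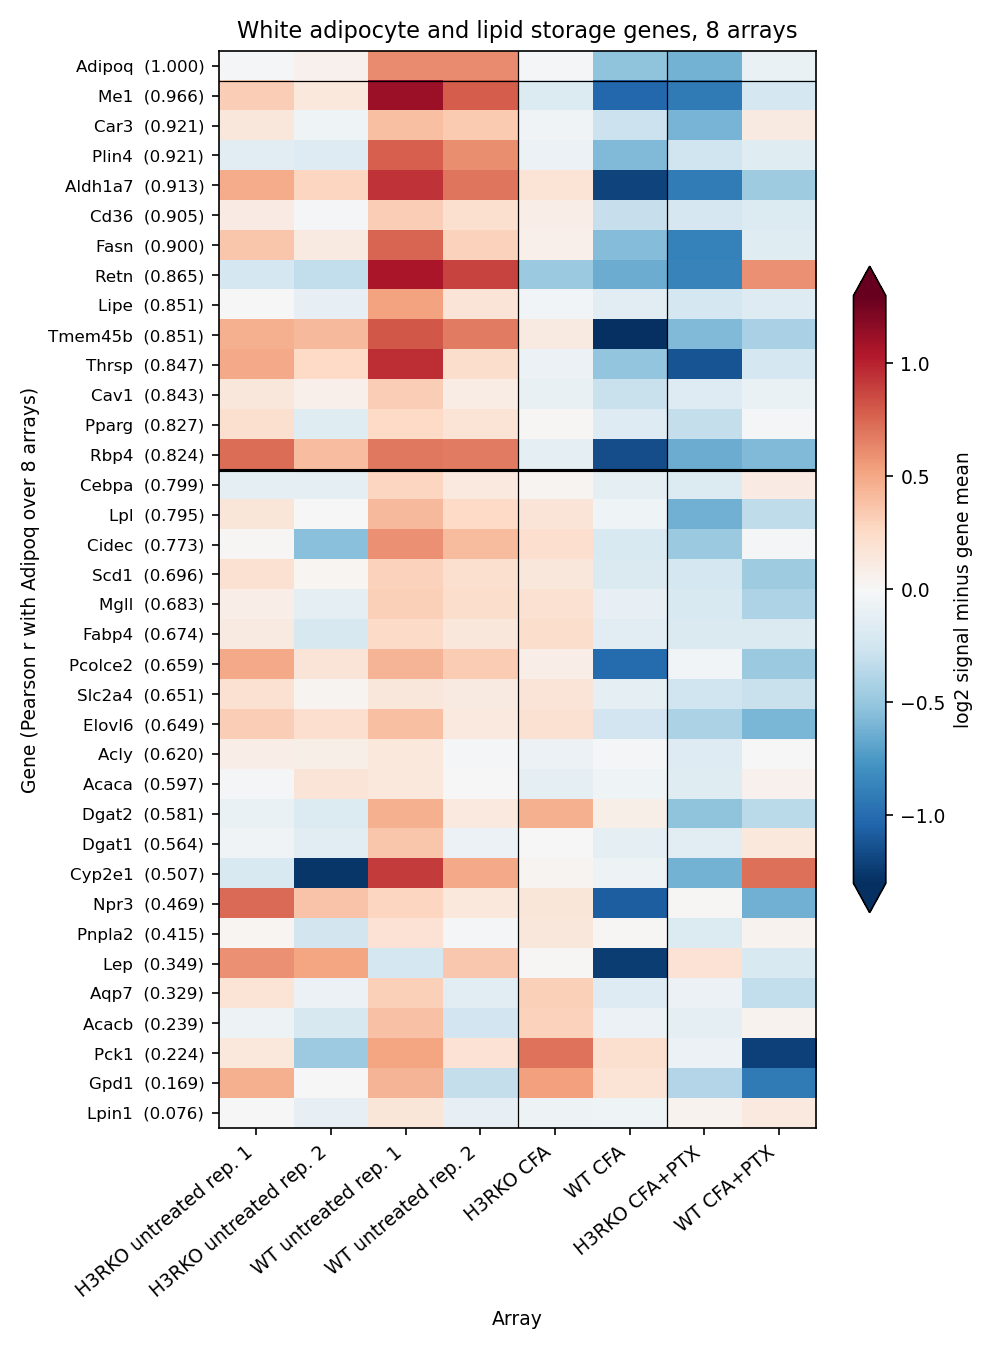
Log2 signal minus the gene's mean over 8 arrays (colour, with pointed ends for values beyond the scale) for the 36 measured genes (vertical axis, ordered by Pearson r with Adipoq) in each array (horizontal axis, labelled H3RKO left of WT within a treatment). The upper block holds Adipoq and the 13 genes with r of at least 0.8, which were high in both WT untreated arrays and low in the WT CFA and H3RKO CFA+PTX arrays.

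Adipoq, which encodes the hormone adiponectin and is made almost solely by adipocytes, served as the readout of fat content, since Plin1, its intended partner, was not measured. Its log2 signals were 11.51, 11.59, 11.51 and 10.93 in the arrays labelled H3RKO (untreated replicates 1 and 2, CFA, CFA+PTX) and 12.15, 12.16, 11.01 and 11.45 in the WT arrays in the same order. The WT untreated pair stood above all other arrays, and the H3RKO CFA+PTX and WT CFA arrays were the lowest. A gene was taken to follow Adipoq when Pearson's r over the 8 arrays was at least 0.8.

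Of the other 35 measured genes, 13 (37.1%) followed Adipoq, against 1.69% of the 12392 other genes on the array. They were Me1 (r = 0.966), Car3 (0.921), Plin4 (0.921), Aldh1a7 (0.913), Cd36 (0.905), Fasn (0.900), Retn (0.865), Lipe (0.851), Tmem45b (0.851), Thrsp (0.847), Cav1 (0.843), Pparg (0.827) and Rbp4 (0.824), with Spearman rho of 0.76 to 0.93. They were picked by this r, and the lowest exact permutation p adjusted over all 22625 probe sets was 0.678. Without the arrays farthest from the median of Adipoq, the WT untreated pair, r was 0.58 to 0.94 and remained at 0.8 or above for 6 of the 13, so that for the other 7 the threshold was reached only with that pair. With the mean of Adipoq, Plin4, Cidec and Retn as the readout, 7 genes followed, namely Car3, Cd36, Fasn, Lipe, Me1, Pparg and, in addition, Cebpa. Aldh1a7, Cav1, Rbp4, Thrsp and Tmem45b then had r of 0.68 to 0.799, and Plin4 and Retn were part of that readout. Adipoq and these genes were measured on the same arrays and share any difference in fat content between them.

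The followers held genes of several steps of fat metabolism. Me1 (malic enzyme, a source of NADPH), Fasn (fatty acid synthase) and Thrsp (a promoter of fat synthesis) act in lipogenesis, Plin4 coats lipid droplets, Lipe is hormone-sensitive lipase, and Cd36 and Cav1 encode membrane proteins that take part in fatty acid uptake. Pparg is the master transcription factor of adipocytes. Just below the threshold lay Cebpa (r = 0.799), a transcription factor that acts with Pparg, Lpl (0.795), the lipase that frees fatty acids from lipoproteins, and Cidec (0.773), which enlarges lipid droplets.

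The 22 genes that did not follow had r of 0.08 (Lpin1, a phosphatidate phosphatase) to 0.799 (Cebpa). They included the hormone gene Lep (0.349), the lipases Pnpla2 (0.415) and Mgll (0.683), the glycerol channel gene Aqp7 (0.329), and Gpd1 (0.169) and Pck1 (0.224), whose enzymes supply glycerol 3-phosphate. The lipid synthesis genes Acly (0.620), Acaca (0.597), Acacb (0.239), Dgat1 (0.564) and Elovl6 (0.649) were also below the threshold. Between the lowest and highest array, Acly spanned 0.31 and Acaca 0.33 log2 units, less than the 0.99 of Elovl6, a fatty acid elongase gene. Acaca was dim (mean log2 signal 5.67, below the lower quartile of 5.85), which can narrow its span. Scd1, the stearoyl-CoA desaturase gene, had r = 0.696, Slc2a4, the insulin-dependent glucose transporter gene, 0.651, and Dgat2, which completes triglyceride, 0.581. Fabp4, the adipocyte fatty acid carrier, ranged over 0.46 and reached r = 0.674.

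The first comparison asked how the genotypes differ without immunization, and in untreated LN fat genes were mostly lower in the arrays labelled H3RKO. Of the 36, 31 were lower and 5 higher, with a median log2 difference of −0.23, whereas 57.2% of all genes were lower with a median of −0.02. At the thresholds of the study, more than a 2-fold difference with an unadjusted p below 0.05, applied here to the moderated p of limma and called the criterion below, 2 of the 36 passed, against 0.161% of all genes. Without moderation of the variances Cyp2e1 did not pass and 1 did. Retn, which encodes resistin, had log2 signals of 9.51 and 9.42 in the untreated arrays labelled H3RKO and 10.80 and 10.61 in untreated WT arrays. Its fitted difference was −1.24 ± 0.10 (log2 ± SE, n = 2 each, limma adjusted p = 0.0924). Cyp2e1, a cytochrome P450 active in liver and fat, gave 10.58 and 9.51 in the untreated arrays labelled H3RKO and 11.68 and 11.26 in untreated WT arrays.

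For Cyp2e1 the fitted difference was −1.43 ± 0.35 (limma adjusted p = 0.916), and without H3RKO untreated replicate 2, its lowest array, the difference was −0.89 and no longer past 2-fold. Other genes, among them the droplet genes Plin4 and Cidec, were lower at smaller sizes without reaching the criterion. The differences were −0.84 ± 0.10 for Plin4, −0.77 ± 0.19 for Cidec, −0.72 ± 0.14 for Me1 and −0.60 ± 0.09 for Adipoq (log2 ± SE, n = 2 each). The genes with higher values included Lep (0.49 ± 0.19), Npr3 (0.35 ± 0.14) and Gpd1 (0.17 ± 0.28). No gene of the set passed an adjusted p of 0.05 in limma, and 14 had an unadjusted p under 0.05. Of all 22626 probe sets tested, 1228 had one.

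Markers of other tissues also differed between the untreated arrays. Skeletal muscle genes were higher in the H3RKO mean for 12 of 12 (3 at the criterion), with a mean log2 signal of 5.98 to 6.67 in untreated arrays labelled H3RKO and 5.66 to 5.69 in untreated WT arrays, 5 of the 12 being below the lower quartile. Neutrophil genes were higher for 8 of 9 (median 0.59, 2 at the criterion), at 8.43 to 8.58 in untreated arrays labelled H3RKO and 7.83 to 7.93 in untreated WT arrays. Salivary and lacrimal gland genes were higher for 8 of 8 (median 1.68, 0 at the criterion), where WT untreated replicate 1 stood apart at 9.98. Their part in the differences of the fat genes was not tested.

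After CFA, most fat genes were higher in the array labelled H3RKO. Of the 36 genes, 33 were higher there and 3 lower, with a median log2 difference of 0.38, against 62.3% higher and a median of 0.04 over all genes. The criterion was passed by 6 genes, all higher, against 0.145% of all genes in either direction and 0.0968% that were higher. Of these 6, all but Lep are among the genes that the study itself listed as higher in H3RKO LN after CFA, from these same arrays. The set was drawn up with such results known, so the contrast with all genes is not independent evidence. Without moderation Lep did not pass and 5 did. Each of the 6 had its lowest signal of all 8 arrays in the WT CFA array. The gap between the CFA arrays rests on 1 array per genotype, with the spread taken from the untreated pairs.

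Tmem45b, a gene of a membrane protein, had log2 signals of 8.30, 8.26, 7.95 and 7.27 in the arrays labelled H3RKO (untreated replicates, CFA, CFA+PTX) and 8.64, 8.52, 6.34 and 7.42 in WT arrays. Aldh1a7, an aldehyde dehydrogenase gene, gave 7.67, 7.46, 7.36 and 6.27 in the arrays labelled H3RKO and 8.12, 7.88, 5.98 and 6.71 in WT arrays. In both genes the H3RKO CFA array lay close below the untreated pair of its genotype, whereas the WT CFA array lay far below all other arrays of its genotype. The differences after CFA were 1.61 ± 0.13 for Tmem45b (limma adjusted p = 0.313) and 1.38 ± 0.18 for Aldh1a7 (limma adjusted p = 0.636).

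Rbp4, which encodes the retinol carrier of plasma that adipocytes also secrete, gave 8.79, 8.47, 7.94 and 7.41 in the arrays labelled H3RKO and 8.74, 8.74, 6.91 and 7.48 in WT arrays. Lep, which encodes leptin, gave 7.20, 7.11, 6.61 and 6.78 in the arrays labelled H3RKO and 6.37, 6.95, 5.37 and 6.40 in WT arrays. Rbp4 differed between genotypes by −0.11 ± 0.13 in untreated LN and −0.07 ± 0.18 after CFA+PTX, whereas Lep was higher in the H3RKO mean in every treatment.

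Npr3, the clearance receptor of natriuretic peptides, gave 6.11, 5.74, 5.53 and 5.39 in the arrays labelled H3RKO and 5.65, 5.51, 4.31 and 4.75 in WT arrays. Pcolce2, which encodes an enhancer of procollagen processing, gave 7.28, 6.95, 6.87 and 6.75 in the arrays labelled H3RKO and 7.23, 7.12, 5.79 and 6.30 in WT arrays. Both were low in both injected WT arrays and varied less among the arrays labelled H3RKO. The differences after CFA were 1.24 ± 0.27 for Lep, 1.23 ± 0.20 for Npr3, 1.08 ± 0.19 for Pcolce2 and 1.03 ± 0.18 for Rbp4 (log2 ± SE, 1 array per genotype).

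Npr3 was dim, and its other probe sets differed after CFA by 0.30 and 0.12 only. Adipoq (0.49 ± 0.12), Me1 (0.84 ± 0.20), Fasn (0.63 ± 0.25) and Plin4 (0.50 ± 0.14) were higher in the H3RKO CFA array without reaching 2-fold. The 3 lower genes were Acly, Acaca and Lpin1, with differences between −0.08 and 0.00. No gene of the set passed an adjusted p of 0.05 in limma.

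**Figure D2:**
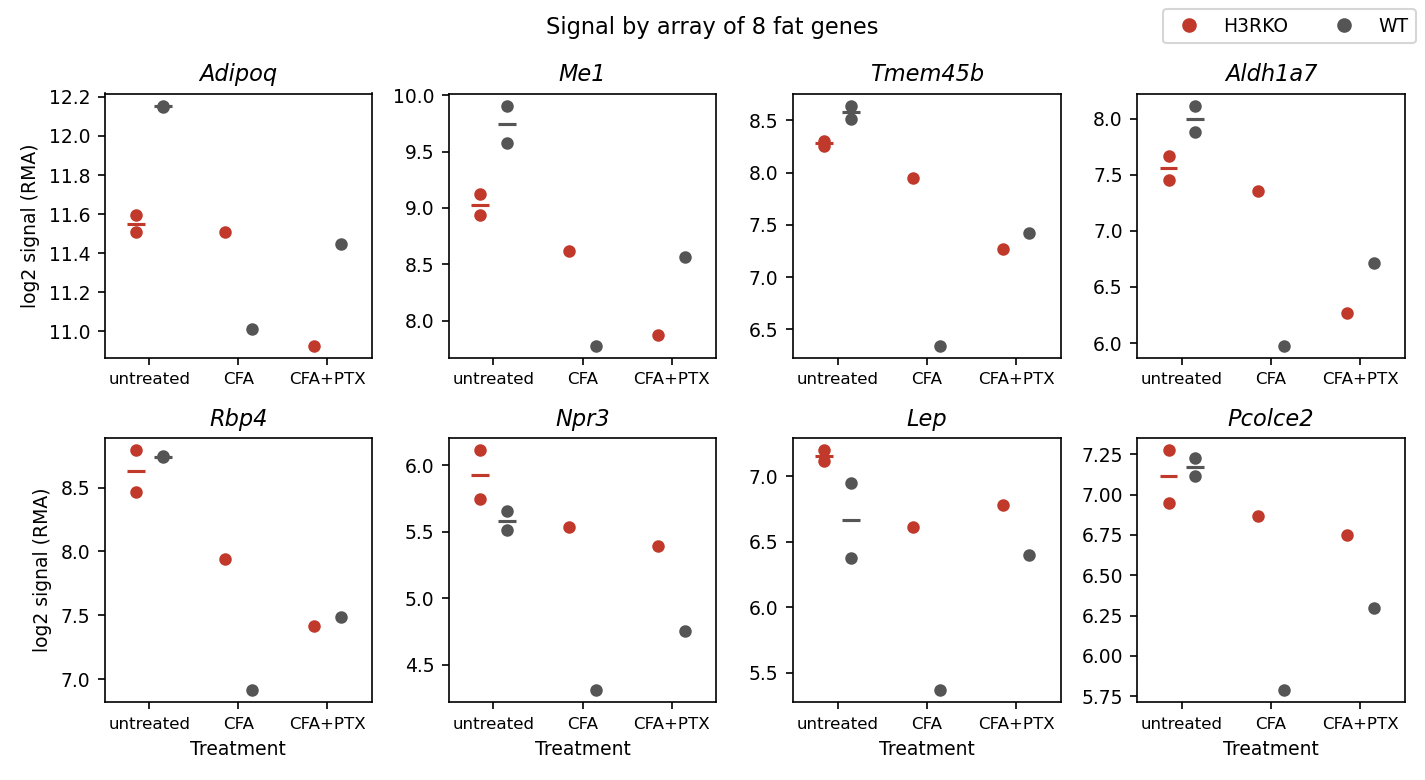
Log2 signal (vertical axis, scaled per gene) of 8 genes by treatment (horizontal axis), with 1 point per array labelled H3RKO (red, left) or WT (grey, right) and a line at the mean of each untreated pair. All genes shown but Adipoq had their lowest signal in the WT CFA array.

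The change of the genotype difference between untreated LN and LN after CFA was tested as an interaction. It was positive for 34 of 36 genes, with a median of 0.60 against 0.05 over all genes, and 11 genes passed the criterion, all positive, against 0.412% of all genes in either direction and 0.186% that were positive. They were the hormone genes Adipoq (1.10 ± 0.15), Retn (1.41 ± 0.18) and Rbp4 (1.14 ± 0.22), the droplet genes Plin4 (1.35 ± 0.17) and Cidec (1.19 ± 0.34), and the metabolic genes Me1 (1.55 ± 0.24), Pck1 (1.02 ± 0.39) and Cyp2e1 (1.53 ± 0.61). Tmem45b (1.91 ± 0.16), Aldh1a7 (1.82 ± 0.22) and Pcolce2 (1.14 ± 0.23) completed the list. No gene of the set passed an adjusted p of 0.05 in limma (lowest 0.348, for Tmem45b).

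For Plin4 and Retn the WT CFA array lay far below the untreated WT pair, while the arrays labelled H3RKO stood closer together. Plin4 had 9.60 and 9.57 in untreated and 9.67 in CFA arrays labelled H3RKO, against 10.52 and 10.34 in untreated and 9.17 in CFA arrays of WT mice. Retn had 9.26 in the H3RKO CFA array and 9.09 in the WT CFA array, both below all the untreated arrays. Without moderation of the variances 6 of the 36 genes passed, and Cidec, Rbp4, Pck1, Pcolce2 and Cyp2e1 did not, which was also the result without H3RKO untreated replicate 2. The mean log2 signal of fibroblast and fat progenitor genes (9 of 10 measured, none below the lower quartile) was lower in all 4 injected arrays. It was 9.90 in the H3RKO CFA, 9.70 in the WT CFA, 10.001 in the H3RKO CFA+PTX and 9.90 in the WT CFA+PTX array. The untreated arrays of both genotypes had 10.28 to 10.46. Single genes of this list did not all go with the mean, since Pdgfra (10.05) and Cd34 (9.80) had their highest signal in the WT CFA+PTX array. The part of these genes in the result was not tested.

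After CFA+PTX, 25 of 36 genes were lower in the array labelled H3RKO, against 58.4% of all genes, with a median of −0.16 against −0.03 over all genes. The 13 genes that followed Adipoq were all lower, a split made by r with Adipoq over these same arrays. Of the 22 that did not follow, 11 were lower and 11 higher, with a median of −0.04. The criterion was passed by 3 genes, against 0.347% of all genes. Retn gave 8.87 in the H3RKO CFA+PTX array and 10.33 in the WT CFA+PTX array (−1.46 ± 0.15, limma adjusted p = 0.215), and Cyp2e1 gave 10.15 and 11.49 in the same order (−1.33 ± 0.50). Pck1, which encodes phosphoenolpyruvate carboxykinase, was higher, with 8.86 in the H3RKO CFA+PTX array and 7.72 in the WT CFA+PTX array (1.14 ± 0.31). Without moderation 1 gene passed, and Pck1 and Cyp2e1 did not.

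Pck1 was also the only gene of the set to pass in the interaction of genotype with CFA+PTX (1.66 ± 0.39), where 0.307% of all genes passed, and without moderation it did not. The CFA and CFA+PTX interactions share the untreated arrays. Adipoq differed by −0.52 ± 0.12 after CFA+PTX and Car3, a carbonic anhydrase gene abundant in fat, by −0.71 ± 0.15. No gene of the set passed an adjusted p of 0.05 in limma in either the difference or the interaction. Salivary and lacrimal gland genes (8 of 8 measured, none below the lower quartile) averaged 9.98 in WT untreated replicate 1 and 5.39 in WT CFA+PTX, against 12.79 to 13.50 in the other 6 arrays, and the part of such a difference in these values was not tested.

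**Figure D3:**
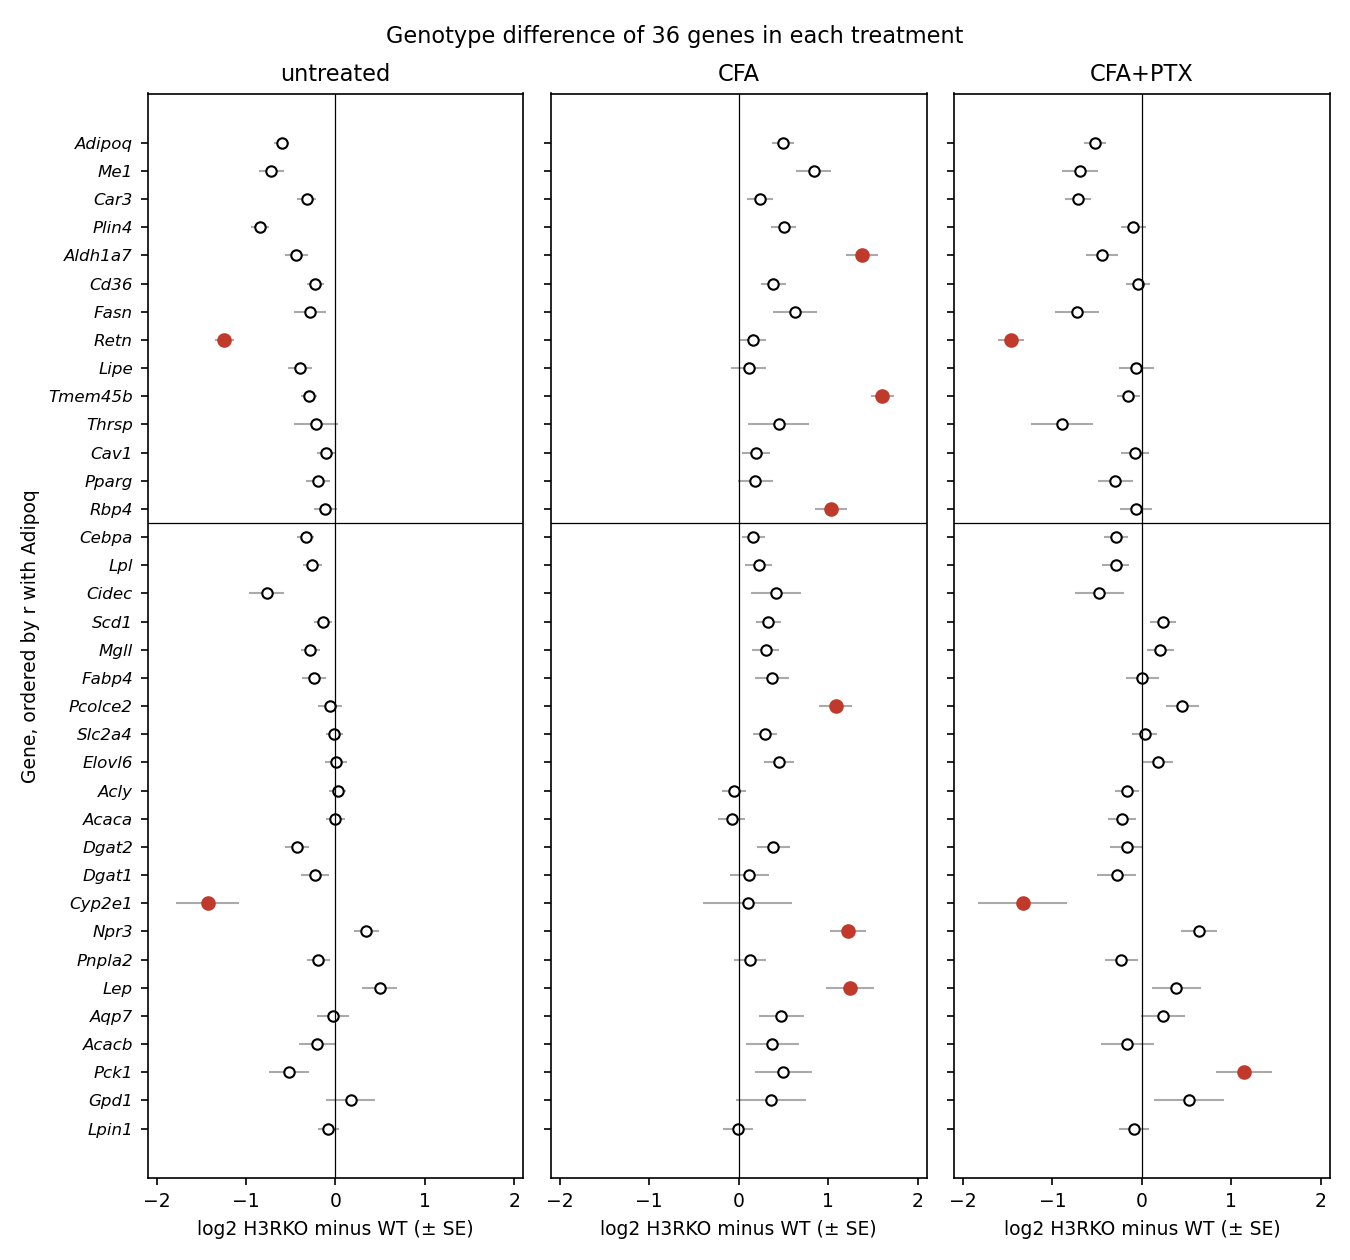
Log2 difference of H3RKO minus WT (horizontal axis, bars are SE of the fit) for the 36 genes (vertical axis, ordered by r with Adipoq) in untreated LN (2 arrays per genotype), after CFA and after CFA+PTX (1 array per genotype each). Red points passed the criterion, 2 in untreated LN, 6 after CFA and 3 after CFA+PTX, and 33 of the 36 points lie right of 0 after CFA.

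Averaged over treatments, 1 gene of the 36 differed between genotypes at the criterion, Cyp2e1 (−1.02 ± 0.32, n = 4 each), against 0.0726% of all genes. Retn differed by −0.95 ± 0.25, Lep by 0.65 ± 0.17 and Npr3 by 0.64 ± 0.16, all under 2-fold. None passed an adjusted p of 0.05 in limma, and 4 had an unadjusted p under 0.05. Of all 22626 probe sets tested, 823 had one. Leaving out WT untreated replicate 1, H3RKO untreated replicate 2 or either CFA+PTX array ended the call of Cyp2e1, with differences of −0.92 to −0.73, as did the fit without moderation, and without either CFA array 2 genes passed. On the signal itself, no gene of the set separated all 4 arrays labelled H3RKO from all 4 WT arrays, against 1.86% of all genes.

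With both genotypes pooled, most fat genes were lower in injected than in untreated LN, but the arrays were not alike. In the H3RKO CFA array 24 of the 36 lay above their own mean, against 4 in the WT CFA array, 3 in H3RKO CFA+PTX and 9 in WT CFA+PTX. After CFA, 30 of 36 genes were lower than in untreated LN and 4 passed the criterion, all lower, against 0.137% of all genes in either direction and 0.0888% that were lower. They were Tmem45b (−1.28 ± 0.37), Rbp4 (−1.26 ± 0.24), Me1 (−1.19 ± 0.32) and Aldh1a7 (−1.11 ± 0.37), with 2 CFA and 4 untreated arrays. Without moderation Rbp4 and Me1 passed, and Tmem45b and Aldh1a7 did not. Without the WT CFA array none of the 4 passed, with differences of −0.70 to −0.20, and without the H3RKO CFA array 12 genes passed.

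After CFA+PTX, 34 of 36 genes were lower than in untreated LN, with a median of −0.44 against 0.01 over all genes. The criterion was passed by 5 genes, all lower, against 0.218% of all genes in either direction and 0.137% that were lower, namely Aldh1a7 (−1.29 ± 0.37), Rbp4 (−1.24 ± 0.24), Me1 (−1.16 ± 0.32), Thrsp (−1.16 ± 0.28) and Tmem45b (−1.09 ± 0.37). Both treatment comparisons share the untreated arrays. Without the H3RKO CFA+PTX array, 2 genes passed, and without moderation 2, Rbp4 and Thrsp. None of the set passed an adjusted p of 0.05 in limma after either treatment, and 13 after CFA and 20 after CFA+PTX had an unadjusted p under 0.05. Of all 22626 probe sets tested, 1413 and 2783 had one.

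Some genes were lower in every injected array. Fasn gave 11.45 and 10.82 in the H3RKO CFA and WT CFA arrays and 10.50 and 11.22 in the H3RKO CFA+PTX and WT CFA+PTX arrays, against 11.49 to 12.13 in the untreated arrays. Adipoq, Fasn, Rbp4, Thrsp, Me1, Tmem45b, Aldh1a7, Pcolce2 and Cav1 were lower in all 4 injected than in all 4 untreated arrays, 9 of 36 genes against 2.93% of all genes. For Adipoq the H3RKO CFA array (11.508) was practically level with H3RKO untreated replicate 1 (11.5086), and for Fasn the gap was also small (11.45 against 11.49). No gene of the set was higher in all 4 injected arrays.

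Between the treatments, 2 genes were lower after CFA+PTX than after CFA at the criterion, against 0.0888% of all genes in either direction and 0.0726% that were lower. Gpd1 gave 9.61 in the H3RKO CFA+PTX and 9.08 in the WT CFA+PTX array, against 10.53 in the H3RKO CFA and 10.17 in the WT CFA array (−1.01 ± 0.25), and Pck1 differed by −1.10 ± 0.42, without passing in the fit without moderation. None passed an adjusted p of 0.05 in limma, and 7 had an unadjusted p under 0.05. Of all 22626 probe sets tested, 1238 had one. Without the WT CFA+PTX array neither passed, with differences of −0.86 for Gpd1 and −0.45 for Pck1. The call of Gpd1 also rests on its brightest probe set, since none of its other probe sets was lower by 2-fold. In the order H3RKO CFA+PTX, WT CFA+PTX, H3RKO CFA and WT CFA, the next brightest gave 7.32, 6.999, 7.63 and 7.67. The one after it gave 6.61, 6.47, 7.08 and 6.94, and the dimmest 2.96, 3.20, 3.15 and 2.89.

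Set against Adipoq, a view chosen after the values were seen, 4 of the 36 genes separated all 4 arrays labelled H3RKO from all 4 WT arrays, against 0.0968% of all genes. These values are differences from another probe set and say nothing of amounts. On the signal itself the share of all genes was 1.86%, and no gene of the set separated the genotypes. The subtraction thus changes the share of all genes as well, which makes it no fair baseline. Adipoq's own difference of means between genotypes, −0.31, enters every value.

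Retn minus Adipoq was −2.25 to −1.999 in arrays labelled H3RKO and −1.92 to −1.11 in WT arrays, a difference of means of −0.64, against −0.95 on the signal itself. Lep minus Adipoq was −4.90 to −4.14 in arrays labelled H3RKO and −5.78 to −5.05 in WT arrays, a difference of means of 0.96, against 0.65 on the signal itself. Relative to Adipoq, then, Retn was lower and Lep higher in every array labelled H3RKO.

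Npr3 minus Adipoq was −5.97 to −5.40 in arrays labelled H3RKO and −6.71 to −6.50 in WT arrays, and Pcolce2 minus Adipoq was −4.64 to −4.18 in arrays labelled H3RKO and −5.23 to −4.92 in WT arrays. The differences of means were 0.95 for Npr3 and 0.66 for Pcolce2, against 0.64 and 0.35 on the signal itself. Relative to Adipoq, Npr3 and Pcolce2 were higher in every array labelled H3RKO. For Npr3 this rests on 1 dim probe set, since its other probe sets differed between genotypes by −0.07 and 0.08 in untreated LN, 0.30 and 0.12 after CFA and −0.12 and 0.31 after CFA+PTX. With Adipoq as a covariate of the fit over all treatments, the genotype difference was −0.53 ± 0.11 for Retn, 0.87 ± 0.16 for Lep, 0.86 ± 0.13 for Npr3 and 0.63 ± 0.14 for Pcolce2 (log2 ± SE, n = 4 each, limma adjusted p = 1.00 each). It was 0.74 ± 0.08 for Tmem45b (limma adjusted p = 0.256), 0.53 ± 0.12 for Aldh1a7 and 0.49 ± 0.11 for Rbp4 (limma adjusted p = 1.00 each), 3 genes that followed Adipoq, and 0.27 ± 0.10 for Elovl6. These 8 had an unadjusted p under 0.05, and the share of all genes that had one in this fit is not given here.

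**Figure D4:**
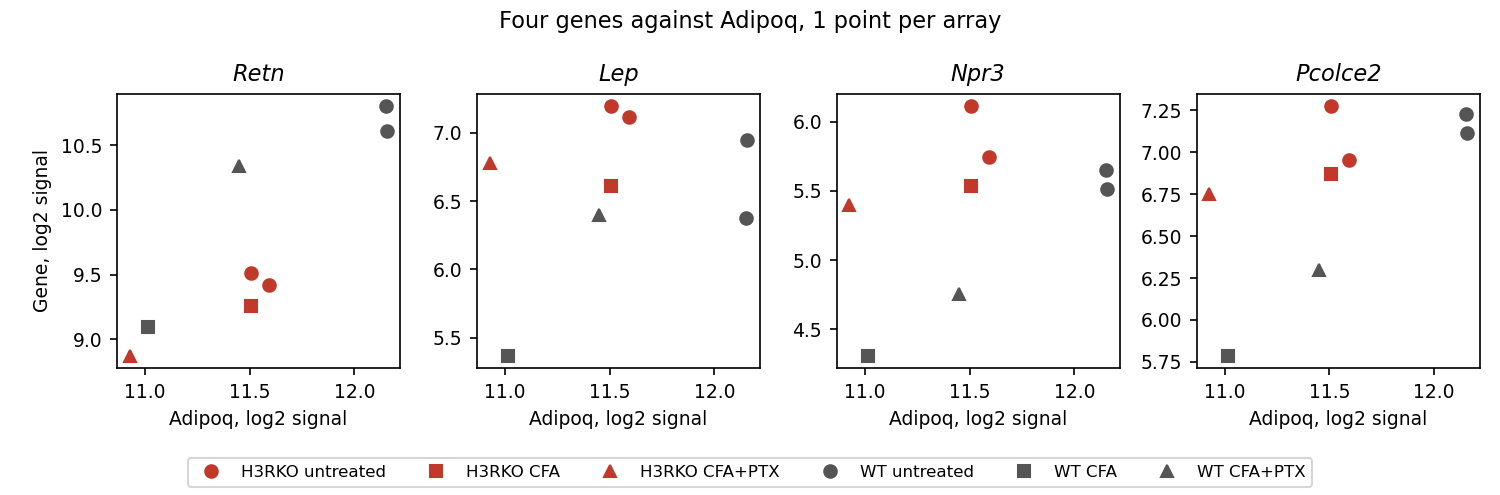
Log2 signal of Retn, Lep, Npr3 and Pcolce2 (vertical axes) against that of Adipoq (horizontal axes), 1 point per array, red for arrays labelled H3RKO and grey for WT, with the shape giving the treatment. At a like Adipoq signal the red points lie below the grey ones for Retn and above them for Lep, Npr3 and Pcolce2.

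The promoters of Lep, of Rbp4 and of Adipoq itself are shown as examples of a gene that did not follow Adipoq, one that did, and the readout. They cover 250 bases before to 50 after the transcription start (RefSeq, GRCm38.p6), and capitals mark a match to TTGCNNAA or its reverse complement, a form of the C/EBP motif, the binding site of the family to which Cebpa belongs. The Lep promoter lies at chr6:29059971-29060270 on the plus strand, the second of 2 listed Rbp4 promoters at chr19:38124762-38125061 on the minus strand, and the Adipoq promoter at chr16:23146286-23146585 on the plus strand.
Lep: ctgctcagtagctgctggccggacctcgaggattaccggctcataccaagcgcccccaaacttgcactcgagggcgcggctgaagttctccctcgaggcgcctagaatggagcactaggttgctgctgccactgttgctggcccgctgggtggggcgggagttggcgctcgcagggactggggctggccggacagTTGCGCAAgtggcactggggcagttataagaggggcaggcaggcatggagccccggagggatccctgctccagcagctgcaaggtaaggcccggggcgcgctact
Rbp4: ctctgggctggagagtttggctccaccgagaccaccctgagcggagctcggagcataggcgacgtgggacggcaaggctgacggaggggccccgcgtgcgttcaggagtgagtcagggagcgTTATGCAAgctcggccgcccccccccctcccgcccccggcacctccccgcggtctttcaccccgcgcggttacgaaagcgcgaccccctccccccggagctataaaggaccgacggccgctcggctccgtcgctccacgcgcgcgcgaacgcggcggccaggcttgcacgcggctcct
Adipoq: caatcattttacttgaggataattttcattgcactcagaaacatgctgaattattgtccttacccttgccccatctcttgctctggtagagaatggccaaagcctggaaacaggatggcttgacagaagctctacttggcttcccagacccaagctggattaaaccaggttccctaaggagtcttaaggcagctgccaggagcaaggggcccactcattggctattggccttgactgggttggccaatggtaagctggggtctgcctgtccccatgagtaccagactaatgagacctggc
The match begins 55 bases before the start in Lep and 128 bases before it in Rbp4, and Adipoq has none in this window, nor has the first listed Rbp4 promoter, at chr19:38125272-38125571. Of 36 promoters listed for 27 of the measured genes, 4 held the motif on either strand (Cidec, Lep, Pparg and Rbp4), or 11.1%, against 10.8% of all 32851 promoters. The DR1 element bound by Pparg, searched as a direct repeat of AGGTCA with 1 base between, and TCACNCCAC, a form of the sterol element of lipogenic genes, were found in none of the 36, against 0.0396% and 1.24% of all promoters. A match is a description of the sequence and not a site of binding.

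Gpd1 and Pck1 correlated more closely with the genes of brown fat than with Adipoq, a relation looked for after the values were seen, and the difference between the correlations was not tested. The mean of 8 brown fat genes (of 10 listed, 2 of them below the lower quartile) was 8.19, 7.82, 8.68 and 7.69 in the arrays labelled H3RKO (untreated replicates, CFA, CFA+PTX) and 8.12, 7.04, 8.37 and 6.50 in WT arrays. Ucp1, the uncoupling protein that defines brown fat, ran from 10.01 to 11.34 in arrays labelled H3RKO and from 7.58 to 11.06 in WT arrays. Brown fat RNA was thus lowest in WT mice after CFA+PTX and next lowest in WT untreated replicate 2, where Adipoq was at its highest.

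Gpd1 gave 10.46, 9.998, 10.53 and 9.61 in arrays labelled H3RKO and 10.44, 9.68, 10.17 and 9.08 in WT arrays. Pck1 gave 9.08, 8.47, 9.65 and 8.86 in arrays labelled H3RKO and 9.45, 9.13, 9.15 and 7.72 in WT arrays. Both were lowest in the WT CFA+PTX array and highest in the H3RKO CFA array. Over the 8 arrays, r with the brown fat mean was 0.921 for Gpd1 (rho = 0.905, exact permutation p = 0.00144, 0.672 after adjustment over all probe sets) and 0.784 for Pck1 (rho = 0.738, exact permutation p = 0.0225). Without the 2 arrays farthest from the median of the brown fat mean, r was 0.80 for both.

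Aqp7 had r = 0.740 with brown fat and, without those 2 arrays, 0.491. Gpd1 was the only gene of the set with r of at least 0.8, against 0.888% of all genes. The 13 followers of Adipoq all had a lower r with brown fat than with Adipoq, but their choice by r with Adipoq fixed this outcome. Adipoq itself had r = −0.188 with the brown fat mean (rho = −0.119, exact permutation p = 0.677). The 3 other probe sets of Gpd1 had r with Adipoq of −0.13 to 0.25, and their r with the brown fat mean is not given here. The brightest of these was highest in H3RKO untreated replicate 1 (8.46, against 7.63 in the H3RKO CFA array). The next brightest was highest in the H3RKO CFA array (7.08). The closeness of Gpd1 to brown fat thus rests on the probe set used. The part of brown fat RNA in the CFA+PTX values of Gpd1 and Pck1 was not tested.

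**Figure D5:**
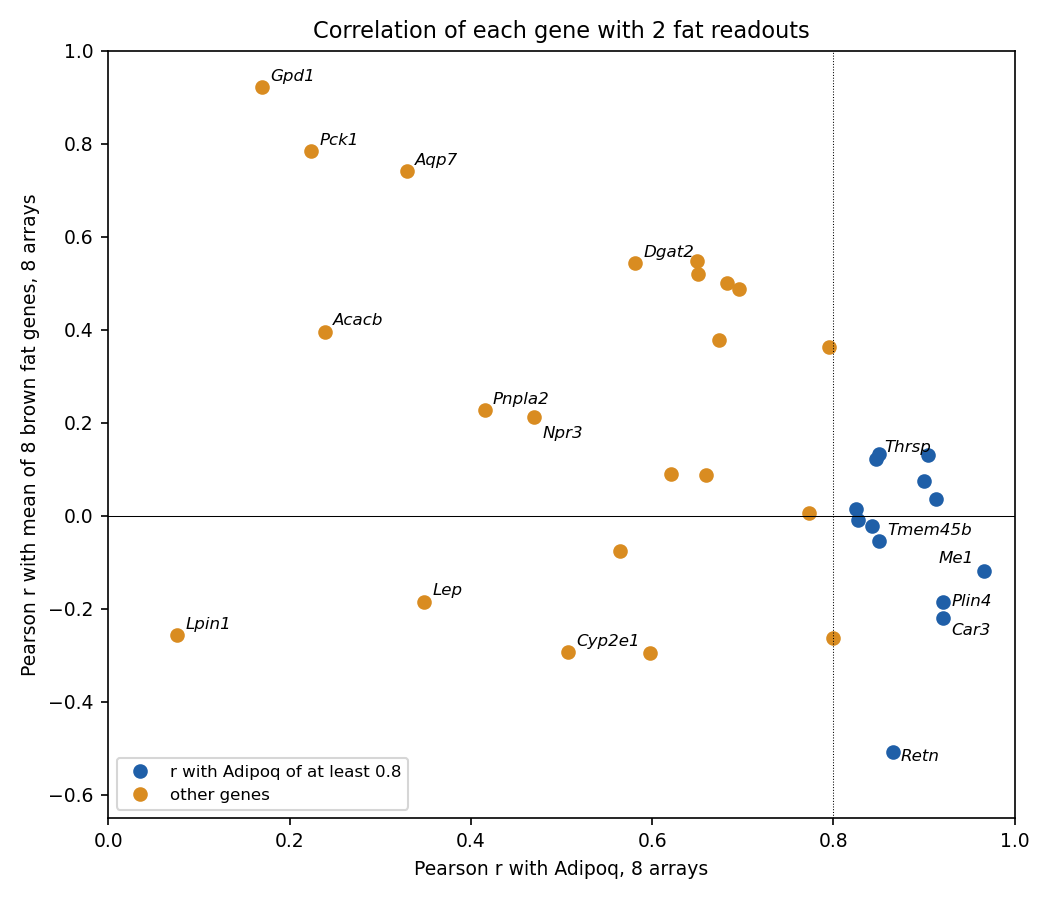
Pearson r over 8 arrays with Adipoq (horizontal axis, dotted line at 0.8) and with the mean of 8 brown fat genes (vertical axis) for each of the 35 other measured genes, blue where r with Adipoq was at least 0.8. Gpd1, Pck1 and Aqp7 stand at the upper left, and the 13 blue points, chosen by r with Adipoq, lie between −0.51 and 0.13 on the vertical axis.

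Other adipocyte and lipid pathway genes, 46 of 57 listed being measured, were counted in the same way. After CFA, 2 (against 0.145% of all genes) were higher in the array labelled H3RKO at the criterion, Nnat, which encodes neuronatin (1.69 ± 0.20), and Orm1, an acute phase protein gene also made by fat (1.22 ± 0.23). Nnat gave 8.79, 8.50, 8.19 and 7.82 in arrays labelled H3RKO and 8.83, 9.07, 6.50 and 7.47 in WT arrays, the WT CFA array again being the lowest. In the interaction with CFA, 5 passed (against 0.412% of all genes), namely Nnat (1.99 ± 0.24), Orm1 (1.58 ± 0.28), Adig, which encodes adipogenin (1.18 ± 0.21), Pcx, the pyruvate carboxylase gene (1.16 ± 0.22), and the carboxylesterase gene Ces1d (1.03 ± 0.22). Nnat and Orm1 were also the 2 that passed, both lower, after CFA (against 0.137% of all genes) and after CFA+PTX (against 0.218%) relative to untreated LN. None of the 46 passed in the other 5 comparisons.

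Among all genes outside the set, those most like Adipoq over the 8 arrays were Plaat3 (r = 0.987), a phospholipase abundant in fat, Pcx (0.972) and Myl9 (0.968), a myosin light chain of smooth muscle. Lrrc23, Irs1, Tfr2, Cabp1, Hes2, Phlda3 and Nrep followed with r of 0.95 to 0.96. Of these, Cabp1 (3.77 to 4.09) and Hes2 (4.54 to 4.96) were dim, below the lower quartile of mean signals, 5.85. Plaat3 spanned 10.17 to 10.46 in arrays labelled H3RKO and 10.18 to 10.71 in WT arrays, and its highest arrays were, as for Adipoq, the WT untreated pair.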

How the data were processed

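Pooled LN RNA was measured by the authors on 1-colour Affymetrix GeneChip Mouse Genome arrays, 1 per pool. The deposited values are log2 signals that the authors background-corrected, normalized and summarized by RMA (Robust Multichip Average) for each probe set, in Partek Genomic Suite by the methods. RMA shrinks differences of dim probe sets. The number of arrays limits the precision. No earlier step was repeated.

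Of 22690 probe sets, 64 controls were set aside and 22626 tested. GEO's platform annotation named 1 gene for 20380, several for 691 and none for 1555. Genotype differences within a treatment and interactions came from limma 3.58.1 (R 4.3.3) with a mean for each of 6 groups (2 residual degrees of freedom), and overall effects from a model with genotype and treatment as additive terms (4 residual degrees of freedom). Calls used the thresholds of the study on limma's moderated p, whereas the methods of the study name a linear model by ANOVA with no moderation stated, and p-values were adjusted (Benjamini-Hochberg) over all tested probe sets. Limma was tested on simulated data. Correlations used all 40320 orders of the arrays (scipy 1.17.1). Every measured gene of the set was reported, with up to 4 called genes of the pathway list per comparison and the 10 genes most like Adipoq. The genes and lists were chosen with earlier results of these data known. The fat readout was to be the mean of Adipoq and Plin1 and became Adipoq alone. Alternatives covered the moderation, threshold, scaling, filters, Adipoq as a covariate, the replicate block and leaving out each array.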

Additional observations from a re-analysis of the deposited data

Results flagged for a closer look

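The genotype difference itself differed between untreated LN and LN after CFA for 11 of the 36 genes, by the limma interaction at the study's thresholds. The interaction, in log2 units, was 1.91 for Tmem45b, 1.82 for Aldh1a7, 1.55 for Me1, 1.53 for Cyp2e1, 1.41 for Retn and 1.35 for Plin4. It was 1.19 for Cidec, 1.14 for Rbp4, 1.14 for Pcolce2, 1.10 for Adipoq and 1.02 for Pck1. The genotype difference of Pck1 also changed between untreated LN and LN after CFA+PTX, by 1.66. Each rests on 1 injected array per genotype, none passed after adjustment over all probe sets, and all share the 4 untreated arrays.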

How the results depend on the processing

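The counts of genes were recomputed. In the order untreated, CFA and CFA+PTX genotype differences, CFA and CFA+PTX interactions, all treatments, CFA and CFA+PTX against untreated, and CFA+PTX against CFA, the counts were 2, 6, 3, 11, 1, 1, 4, 5 and 2. They were all 0 at an adjusted p of 0.05 with no fold change. With a fold change over 1.5 they were 6, 8, 8, 17, 2, 4, 11, 12 and 4. Without moderation of the variances they were 1, 5, 1, 6, 0, 0, 2, 2 and 1, and with a trend and robust moderation 1, 6, 2, 10, 1, 0, 4, 4 and 1. With Adipoq as a covariate they were 4, 9, 3, 7, 2, 0, 0, 0 and 2, and 2 values reversed, Pck1 after CFA+PTX (−2.72) and Tmem45b after CFA+PTX against untreated (0.053). In the 6-group fit this covariate is set only by the small Adipoq differences within the untreated pairs. With 4 genes as the fat readout 7 genes followed it. Leaving out 1 array gave 1 to 3, 6, 2 to 3, 6 to 13, 1 to 2, 0 to 2, 0 to 12, 2 to 6 and 0 to 3 calls, and 9 to 17 genes following Adipoq (9 without WT untreated replicate 1). Without WT untreated replicate 1, Pck1 (0.85) and Cyp2e1 (1.32) left the CFA interaction, Cyp2e1 the CFA+PTX difference (−1.33), Aldh1a7 (−0.97) the CFA comparison with untreated LN and Tmem45b (−0.96) the CFA+PTX one. Without WT untreated replicate 2, Cyp2e1 left the CFA interaction (1.74) and the CFA+PTX difference (−1.33). Pck1 left the comparison of CFA+PTX with CFA without the WT CFA (−1.34), the H3RKO CFA (−0.87) or the first H3RKO untreated array (−1.10), and Gpd1 without the H3RKO CFA array (−0.97).

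The replicate block gave 2, 6, 3, 11, 1, 1, 5, 7 and 2 calls. The untreated replicates share only a number, since their differences correlated at r = 0.12 over probe sets with 2 pairs. Scaling and the filters changed no count of calls by over 1.5 times. The Plin1 alternative was not run. With 1 array per injected group and 2 residual degrees of freedom, small differences of single genes were not detectable.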
